A study of Drosophila melanogaster with 4 samples.

Results

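The right arm of chromosome 3 of Drosophila melanogaster, called 3R, was followed from its first to its last assembled base for dimethylation of histone H3 at lysine 79 (H3K79me2). Its members are all regions on 3R that the authors called significantly enriched in the list for their replicate set, with no limit on width or score: 1232 regions of 5314 on all sequences. They made up 23.2% of the listed regions on 20.0% of the sequence that carried any. The ChIP material was whole embryos of Oregon-R, a wild-type laboratory strain, at 14 to 16 h, and the antibody was against H3K79me2. The labels give 2 ChIP samples and 2 input samples of the same strain and stage, input being chromatin that did not pass the antibody. Each ChIP sample has its own list of enriched regions, with 1164 regions on 3R in replicate 1 and 1181 in replicate 2. The replicate-set list is the authors' combined list. The input is not analysed here. Whole embryos hold many tissues, so a region reports an average over cell types, and the labels do not say whether the 2 replicates were separate embryo collections. The spread between them may therefore be technical.

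H3K79me2 is placed on the surface of the nucleosome core by the Dot1 family of methyltransferases, whose fly member is grappa. Unlike most lysine methylation of H3, it lies on the globular part of the histone and not on its tail. It is found over transcribed genes, mostly in their 5′ part, and is generally scarce in heterochromatin. In Drosophila, 3R is an arm of a metacentric autosome, and release 5 of the genome numbers its bases from the centromere side to the telomere side. The release also holds repeat-rich sequence assigned to the pericentric heterochromatin of the arm as a separate scaffold, 3RHet. All positions given here are 1-based positions on release 5. No annotation or sequence of that release was used, so no gene is named from a position.

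H3K79me2 covered 3R as many short domains. The enriched regions occupied 4.38 Mb, or 15.7%, of the 27.9 Mb arm in the replicate-set list, 13.7% in replicate 1 and 15.9% in replicate 2 (14.8% ± 1.56, SD, n = 2). That is 44.1 regions per Mb in the replicate-set list and 42.0 ± 0.43 in the replicates (SD, n = 2). The 3RHet scaffold carried 9 regions in the replicate-set list and was covered to 0.96%. The other 4 large arms, pooled, were covered to 15.5%, 13.6% in replicate 1 and 15.6% in replicate 2. In each of the 3 lists 3R stood second among the large arms, after 2R (17.8% in the replicate-set list) and before X (15.4%). The distance to X was small: 3R and X were at 13.7% and 13.4% in replicate 1, and at 15.9% and 15.7% in replicate 2, closer to each other than the replicates were. With 2 ChIP lists, an exact paired permutation test between arms cannot give a two-sided p under 0.5, so differences between 3R and other arms are given as values, without a test. The lists hold called regions without read counts, so read depth is unknown.

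Most domains on 3R were a few kilobases wide. The median width was 3114 bp in the replicate-set list, with quartiles of 2423 and 4171 bp. The ChIP lists had medians of 2916 bp (replicate 1) and 3217 bp (replicate 2), on average 3066 bp ± 213 (SD, n = 2). Widths were not spread evenly around the median. In steps of 200 bp, each of the 3 lists had its most frequent width between 2400 and 2600 bp, with 110 regions in the replicate-set list, 157 in replicate 1 and 108 in replicate 2. The next step, to 2800 bp, held 107 regions in the replicate-set list, 92 in replicate 1 and 100 in replicate 2. From 2800 to 3800 bp the replicate-set list was nearly level, at 63 to 68 regions per step. Replicate 2 had 46 regions between 3200 and 3400 bp and 62 between 3600 and 3800 bp. Replicate 1 had 77 and 40 in the same steps, so the lists did not share a second rise. Widths began at 1011 bp in the replicate-set list, at 1303 bp in replicate 1 and at 1302 bp in replicate 2. The 5 kb mark was reached by 207 domains (16.8%) in the replicate-set list, which held 31.6% of its covered length, by 128 in replicate 1 and by 225 in replicate 2.

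**Figure D1:**
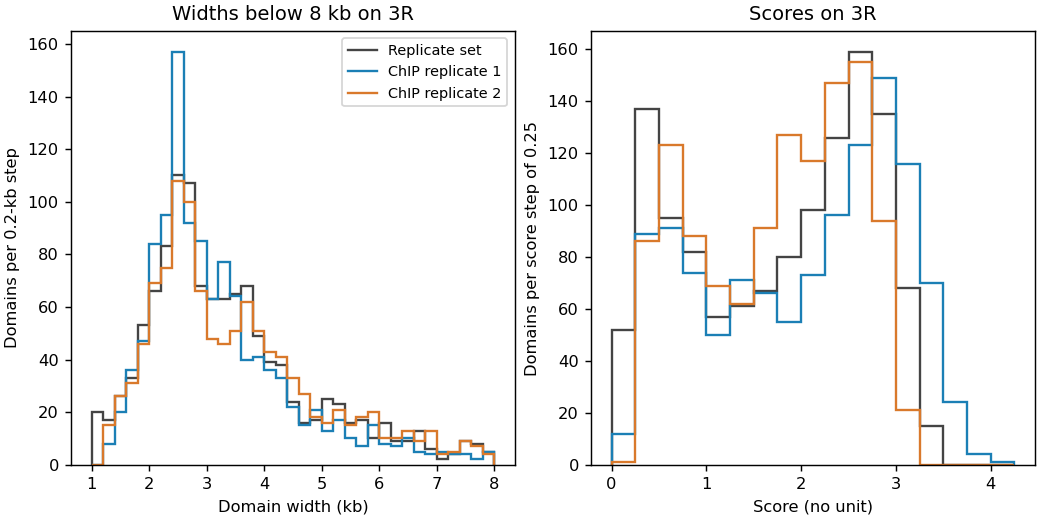
Widths below 8 kb in steps of 0.2 kb (left, number of domains against width in kb) and scores in steps of 0.25 (right, number of domains against the score, which has no unit) for the 3 lists on 3R. All 3 width curves peak between 2.4 and 2.6 kb, and all 3 score curves have a low and a high rise with fewer domains between them.

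The 10 widest domains of 3R measured 10.4 to 12.7 kb and scored between 2.31 and 3.00. The score is the authors' own value for each region, in no stated unit, and is compared by differences only. The widest lay on 3R from 5374618 to 5387322 (12.7 kb, score 2.77). Replicate 2 held it as 1 region of 13.1 kb with a score of 2.51, whereas replicate 1 split it in 2, with a larger piece of 7.46 kb that scored 3.11. The second, from 27037610 to 27049696 (12.1 kb, score 2.94), lay in the last Mb of the arm. It was undivided in the ChIP lists, at 11.3 kb in replicate 1 and 12.5 kb in replicate 2. This was also the widest region of replicate 1 on the arm. Next came a domain from 23740524 to 23752232 (11.7 kb, score 3.00), which was 9.85 kb wide in replicate 1 and 11.6 kb in replicate 2. Of the 10, all were whole in replicate 2 and 3 were whole in replicate 1, while replicate 1 divided the other 7 into 2 regions each.

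The widest region of replicate 2 on the arm, chosen as an example after its values were seen, joined what the other lists kept apart. It ran on 3R from 7038480 to 7054020, over 15.5 kb, and scored 2.83. It corresponded to 3 neighbouring regions in the replicate-set list, the widest of 6.85 kb and the narrowest of 2.93 kb, with scores from 1.83 to 3.14. Replicate 1 also listed 3 regions there, with scores from 1.56 to 3.36. Over the whole arm, 1039 of the 1232 replicate-set regions touched 1 region in each ChIP list, a count that includes neighbours sharing a joined region. For example, the domains from 212536 to 215100 and from 215142 to 217740 both touched the replicate 2 region from 212554 to 217788. A further 33 touched 2 or more regions of replicate 1 and 1 of replicate 2. The reverse held for 13, and 1 touched 2 or more regions in both lists. The widest of the 13, also chosen after its values were seen, lay from 9204060 to 9210198 (6.14 kb) and was 1 region of 5.52 kb in replicate 1.

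The 10 domains with the highest scores measured 3.66 to 6.82 kb, and none of them was among the 10 widest. At the top was a domain of 3.66 kb from 10714290 to 10717944 with a score of 3.43. Its scores in the ChIP lists were 3.78 (replicate 1) and 2.73 (replicate 2). Its neighbours stood close: 511 bp separated it from the region before it and 5 bp from the region after it, and replicate 2 listed it within a region of 7.80 kb that ran on to 10722041. The next was a 6.56 kb domain from 25868016 to 25874578, with scores of 3.41 in the replicate-set list, 3.60 in replicate 1 and 3.17 in replicate 2. After it stood a 5.06 kb domain from 1471678 to 1476732, with a score of 3.38 (3.72 and 2.96 in the ChIP lists). These 10 domains scored 3.60 to 3.78 in replicate 1 and 2.73 to 3.17 in replicate 2. No region of replicate 2 on the arm scored above 3.22, so these ranges could not overlap. Of the 1000 regions that matched one to one between the ChIP lists on 3R, 345 scored higher in replicate 2. Looked up after the values were seen, the highest score of replicate 1 on the arm was 4.07, for a 4.07 kb region from 25572635 to 25576708 that replicate 2 listed as 7.59 kb with a score of 2.83. The highest score of replicate 2 was 3.22, for a 3.75 kb region from 10722336 to 10726080.

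Scores on 3R fell into a low and a high group with fewer regions between them. In steps of 0.25, the replicate-set list had 137 regions between 0.25 and 0.5, 57 between 1 and 1.25, and 159 between 2.5 and 2.75. The median was 1.94 in the replicate-set list, 2.25 in replicate 1 and 1.88 in replicate 2 (2.07 ± 0.26, SD, n = 2). Regions scoring 2 or more numbered 601 (48.8%), against 48.5% of the 5314 regions on all sequences. Regions scoring under 1 numbered 366 (29.7%), against 29.2% of all regions. Both shares were thus near those of the whole list.

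Both groups had their own shape and surroundings. Regions scoring 2 or more had a median width of 3845 bp and held 61.2% of the covered length, and 179 of them reached 5 kb. Regions scoring under 1 had a median width of 2116 bp and held 18.4% of the covered length, and 2 of them reached 5 kb. The nearest neighbour lay within 5 kb for 75.4% of the regions scoring 2 or more, 57.7% of those between 1 and 2, and 54.6% of those under 1. A nearest neighbour at 20 kb or more was found for 31 (5.16%), 36 (13.6%) and 62 (16.9%) of these regions in the same order of classes. Width and score had a Spearman correlation of 0.72 across the 1232 regions, 0.71 in replicate 1 and 0.69 in replicate 2. Regions are not independent replicates, and how width enters the score is not known. Scores of adjacent regions were only weakly related (Spearman's rho 0.12 across 1231 adjacent pairs).

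The coverage of 3R was uneven on the scale of a megabase. Across the 27 whole 1-Mb bins, covered share in the replicate-set list ranged from 8.86% to 25.4% with a median of 14.1%. The densest bin ran from 5000001 to 6000000, with 66 regions and a covered share of 25.4%, 21.9% in replicate 1 and 25.8% in replicate 2. The bin from 20000001 to 21000000 held the most regions, 73, which took up 24.6% of it, 20.8% in replicate 1 and 25.2% in replicate 2. Next, the bin from 11000001 to 12000000 was covered to 22.1%, with 55 regions and a larger median width of 3697 bp. Dense and sparse bins could be adjacent: the bin after the densest was covered to 12.1%, and its regions had a median score of 1.07, the lowest of the arm. In that bin 19 of 40 regions scored under 1. The bin from 13000001 to 14000000 was alike, with a median score of 1.09 and 16 of 33 regions under 1.

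The emptiest bin, from 3000001 to 4000000, had 27 regions and a covered share of 8.86%, 8.02% in replicate 1 and 8.76% in replicate 2. It was followed by the bins from 26000001 to 27000000 (9.65%) and from 22000001 to 23000000 (10.1%). Other arms had emptier bins: the lowest whole bin was at 8.55% on X, 6.06% on 2R, 4.92% on 2L and 3.52% on 3L in the replicate-set list, and 3R had the highest minimum of the 5 arms in the ChIP lists as well. Bins were counted from the first assembled base, so a part bin at the far end of each arm is left out. Replicate 2 was above replicate 1 in all 27 bins, and the order of bins was nearly the same in both (Spearman's rho 0.99 across bins, which share the same 2 libraries). In 5 equal parts of the arm, counted from the centromere end, the covered shares were 17.3%, 15.7%, 14.2%, 17.3% and 14.0%, with no steady rise or fall along the arm. The first and the fourth were the highest in each ChIP list as well.

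**Figure D2:**
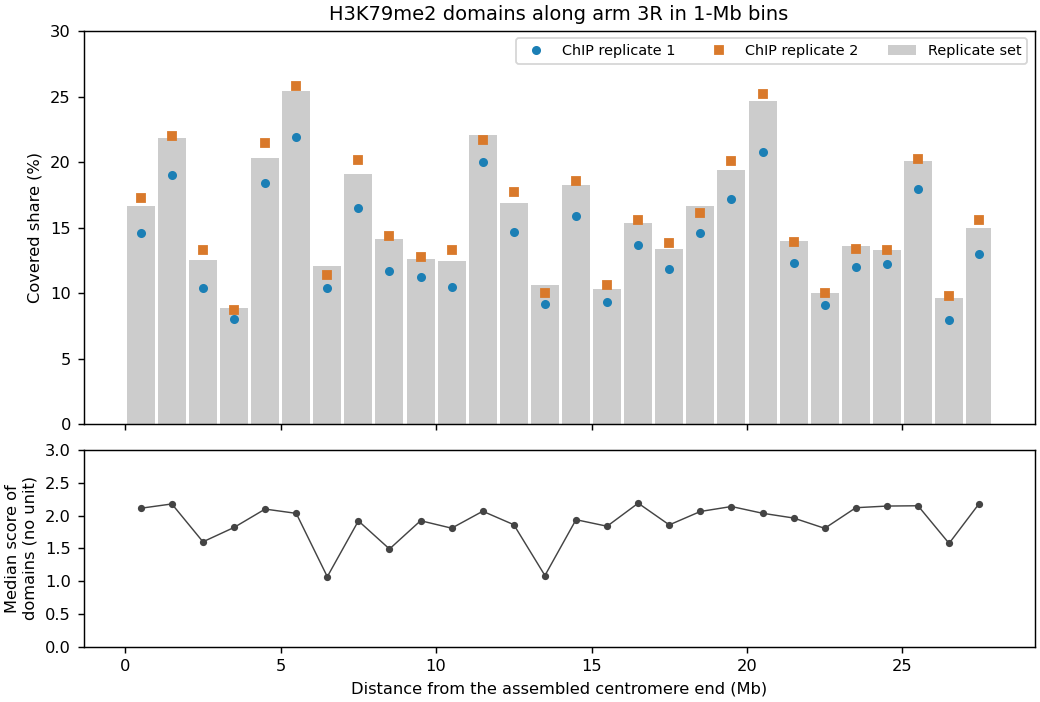
Covered share per 1-Mb bin of 3R (upper panel, percent, grey bars for the replicate set, circles for ChIP replicate 1, squares for ChIP replicate 2) and median score of the replicate-set domains in each bin (lower panel, no unit) against distance from the assembled centromere end in Mb; the last bin is shorter than 1 Mb. Coverage ranges from 8.86% to 25.4% over the whole bins, and the lowest median scores are 1.07 and 1.09.

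On the scale of 100 kb the contrast was larger. Of 279 whole bins of 100 kb, 16 held no base of any region in any of the 3 lists (5.73%), and 13 were covered to 40% or more in the replicate-set list. The densest ran from 11100001 to 11200000, with 12 regions and a covered share of 65.5%, 63.2% in replicate 1 and 63.6% in replicate 2. The next were from 1400001 to 1500000 (51.0%) and from 25800001 to 25900000 (50.1%). Examples of empty bins were those from 22400001 to 22500000, from 23600001 to 23700000 and from 24000001 to 24100000.

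Neighbouring domains on 3R stood a median of 6847 bp apart in the replicate-set list, 7575 bp in replicate 1 and 6902 bp in replicate 2. The quartiles in the replicate-set list were 2378 and 22816 bp, and 528 of 1231 distances (42.9%) were under 5 kb. On the other 4 arms together the median distance was 7011 bp. When regions less than 5 kb apart were joined into runs, the 1232 regions formed 704 units, of which 427 were single regions and 277 were runs of 2 or more. Runs of at least 5 regions numbered 31 in the replicate-set list, 26 in replicate 1 and 31 in replicate 2.

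The longest run held 14 domains on 3R from 5564356 to 5636036, inside the densest 1-Mb bin. It spanned 71.7 kb, of which the domains covered 66.0% in the replicate-set list, 57.0% in replicate 1 and 64.6% in replicate 2. Its domains measured 1.49 to 6.71 kb. Of the 14, 8 scored 2 or more and 5 scored under 1, with scores from 0.27 to 3.10. Replicates 1 and 2 each listed 13 regions there, which did not all match. The 2 narrowest domains of the run, of 1.49 and 1.76 kb with scores of 0.27 and 0.29, were listed in replicate 2 (score 0.42 for each) and not in replicate 1. The 6.71 kb domain was whole in replicate 2 (6.75 kb) and 2 regions in replicate 1, of 2.50 and 3.82 kb. A stretch of 63.4 kb without a region followed the run.

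**Figure D3:**
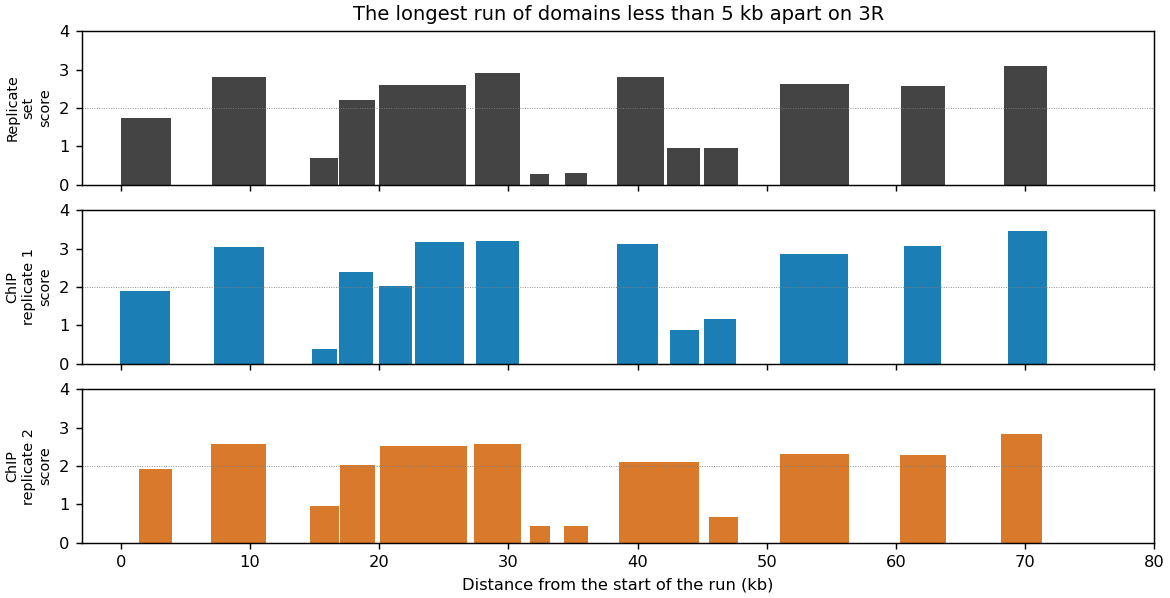
The longest run of domains less than 5 kb apart on 3R, in the 3 lists; each bar spans a domain (distance from the start of the run, kb) and its height is the score (no unit), with a dotted line at 2. Domains scoring 2 or more (8) and under 1 (5) are interspersed, and 2 low domains of the replicate set are missing in ChIP replicate 1.

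The second run, of 10 domains from 11135652 to 11202204, was the more fully marked: 76.0% of its 66.6 kb was covered, 73.4% in replicate 1 and 72.1% in replicate 2, and its widest domain measured 8.92 kb. Another, 1 of 2 runs of 8 domains, lay from 20076790 to 20123248 and was weaker. Domains took up 42.7% of it in the replicate-set list, 25.5% in replicate 1 and 46.3% in replicate 2, and its median score was 1.03. Replicate 1 listed 5 regions there and replicate 2 listed 8.

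Long stretches without any domain lay between some of the runs and single domains. In the replicate-set list, 43 stretches of over 100 kb made up 21.6% of 3R. Replicate 1 had 51 such stretches (26.0%) and replicate 2 had 49 (25.5%). On the other 4 arms together the share was 25.05% in the replicate-set list, 26.5% in replicate 1 and 28.1% in replicate 2. The longest distance between replicate-set domains on 3R ran from 8546371 to 8784657 (238 kb). Replicate 1 had no region in it, and replicate 2 reached into it by 125 bp at its edge. Its flanking domains scored 1.52 and 1.44. The next ran from 16155873 to 16374899 (219 kb), with a domain scoring 3.08 directly before it and one scoring 2.19 directly after it. The others of the 5 longest ran from 3093651 to 3297893 (204 kb), from 15884931 to 16077533 (193 kb) and from 17962063 to 18154455 (192 kb). The first of these 3 lay in the emptiest 1-Mb bin.

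In both ChIP lists, however, the longest empty stretch of 3R lay elsewhere, from 23876357 to 24150558 in replicate 1 and from 23876638 to 24150395 in replicate 2, 274 kb in each. The replicate-set list broke it into 96.3 and 176.5 kb with a single region of 1013 bp, from 23972892 to 23973904, which scored 0.40 and which neither ChIP list held. Of 46 stretches of over 100 kb that were free of regions in both ChIP lists, 4 held such a replicate-set region, 1 region each, with scores from 0.26 to 0.40 and widths from 1013 to 1617 bp. The widest of these 4 regions, from 13072256 to 13073872, left 93.1 kb before it and 96.9 kb after it.

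By distance to the nearer neighbour, the most isolated domain of 3R lay from 23260816 to 23263964 (3.15 kb, score 1.39), with 144.5 kb to the domain before it and 119 kb to the one after it. Its scores in the ChIP lists were 1.73 (replicate 1) and 1.08 (replicate 2). The next, of 5.74 kb, from 11491100 to 11496836 stood 177.6 and 114.7 kb from its neighbours and scored 1.77, 2.02 in replicate 1 and 1.74 in replicate 2. Its distances on both sides add up to more than those of the first, and it lay inside one of the 3 densest 1-Mb bins of the arm. The last of the 3, from 2757086 to 2759086 (2.00 kb), scored 0.36, 0.31 in replicate 1 and 0.53 in replicate 2, with neighbours at 114.2 and 132.1 kb. All 3 were present in both ChIP lists.

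At the centromere end, enriched regions reached the first assembled base of 3R. The first domain ran from 2 to 3604 in the replicate-set list, from 6 to 2790 in replicate 1 and from 1 to 3902 in replicate 2, so its full width is not known. It scored 1.75, 2.10 in replicate 1 and 1.69 in replicate 2. On the other large arms the distance from the assembled centromere end to the nearest replicate-set region was 5.81 kb on X, 11.1 kb on 3L, 17.5 kb on 2R and 48.6 kb on 2L. At the telomere end of 3R, 9987 bp followed the last domain, from 27891906 to 27895066 (score 2.03).

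The first assembled Mb held 50 domains, covering 16.7% in the replicate-set list, 14.6% in replicate 1 and 17.3% in replicate 2 (15.9% ± 1.86, SD, n = 2). Between the end Mb of the arm the shares were 15.7%, 13.8% in replicate 1 and 16.0% in replicate 2. Coverage of the first 250 kb was higher, 27.9% in the replicate-set list, 24.1% in replicate 1 and 27.2% in replicate 2. In steps of 100 kb from the end, the shares were 21.3%, 27.2% and 43.5% in the first 3 steps, then 5.68%, 15.4%, 13.3%, 19.8% and 11.4%. The ninth step, from 800001 to 900000, held no region in any list, and the last was covered to 8.89%.

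Many of the domains nearest the end had low scores. Of the 8 domains in the first 100 kb, 5 scored under 1 and 2 scored 2 or more, and in the second 100 kb 5 of 9 scored under 1. The share under 1 was 29.7% on the whole arm and 29.2% on all sequences. These counts are small, and the low domains that begin at 67192, 133344 and 171250 were not in replicate 1. The last of them was in neither ChIP list. The domains that followed the first one on the arm, from 22190 to 24352 and from 39158 to 41692, scored 0.61 and 0.70. Among them, however, stood the highest-scoring domain of the first Mb, from 55978 to 60928 (4.95 kb), with a score of 3.06, 3.25 in replicate 1 and 2.96 in replicate 2. In the step that begins at 200001, 6 of 9 domains scored 2 or more. The 3 widest domains of the first Mb lay there, from 221784 to 230986 (9.20 kb, scoring 2.77), from 257398 to 265252 (7.86 kb, scoring 2.90) and from 272846 to 280348 (7.50 kb, scoring 1.82). Replicate 2 held the second of these in a region of 12.5 kb, which began at 252815. The next widest lay further out, from 907572 to 913808 (6.24 kb, scoring 3.02) and from 635390 to 640782 (5.39 kb, scoring 2.29). A pair of empty stretches of over 100 kb lay in this Mb, from 312575 to 465009 (152 kb) and from 787871 to 907571 (120 kb).

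**Figure D4:**
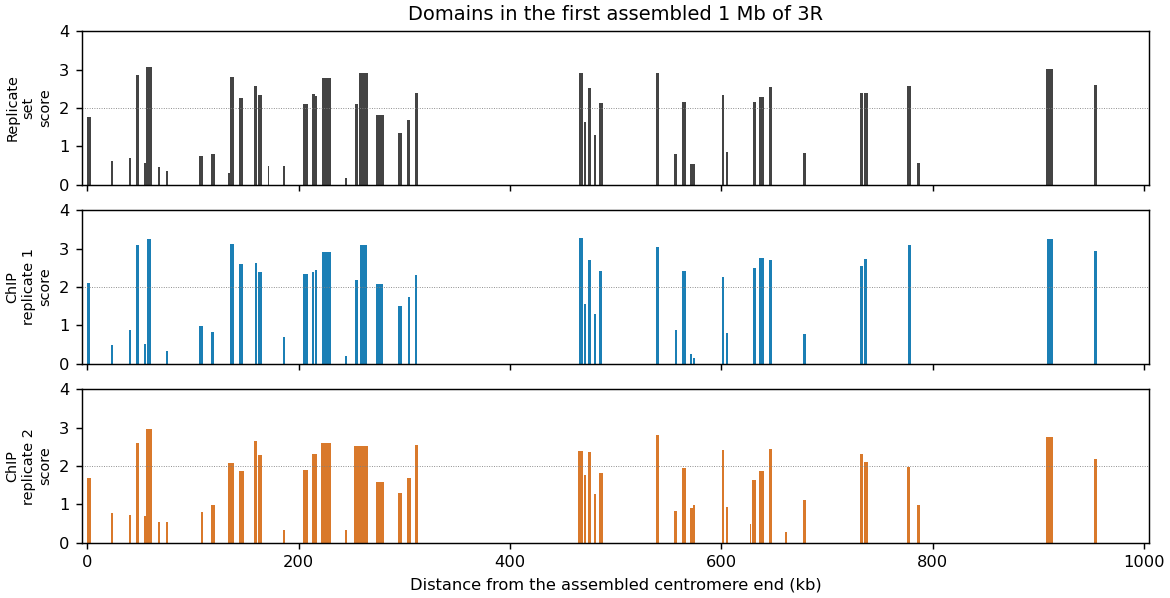
Domains in the first assembled 1 Mb of 3R in the 3 lists; each bar spans a domain (distance from the assembled centromere end, kb) and its height is the score (no unit), with a dotted line at 2. Of the 17 domains in the first 200 kb, 10 score under 1, against 29.7% on the whole arm. The widest domains follow in the next 100 kb, and stretches of 152 and 120 kb hold no replicate-set domain.

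As a group, the 50 domains of the first Mb had a median width of 2860 bp, against 3133 bp on the rest of 3R, and a median score of 2.11, against 1.93. The share scoring under 1 was 34.0%, against 29.5% on the rest, and the share scoring 2 or more was 54.0%, against 48.6%. In replicate 1, 29 of 46 regions of the first Mb scored 2 or more (63.0%), against 56.1% on the rest of 3R, and the median score was 2.37, against 2.25. Replicate 2 ran the opposite way, with 18 of 48 regions at 2 or more (37.5%), against 45.5% on the rest, and a median score of 1.80, against 1.90. The direction of the score difference thus differed between the replicates. In replicate 1, 13 of 46 regions of the first Mb scored under 1 (28.3%, against 22.6% on the rest). Replicate 2 had 16 of 48 (33.3%, against 24.9%). These shares rest on few regions, which the lists largely have in common, and their difference from the rest of the arm was not tested.

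The other assembled arms were much less covered in the Mb at their centromere end, 6.41% on X, 6.87% on 2L, 6.06% on 2R and 2.16% on 3L in the replicate-set list, with 20, 23, 23 and 9 regions. All 4 were below 3R in each ChIP list: they lay between 1.47% and 6.58%, against 14.6% and 17.3% on 3R. Regions scoring 2 or more in that Mb numbered 27 on 3R in the replicate-set list, 12 on X, 13 on 2L, 13 on 2R and 3 on 3L. The distance of each assembled end from the centromere itself, and its mappability, were not measured. A difference in where the assembly stops and a difference in chromatin cannot be told apart from these lists.

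**Figure D5:**
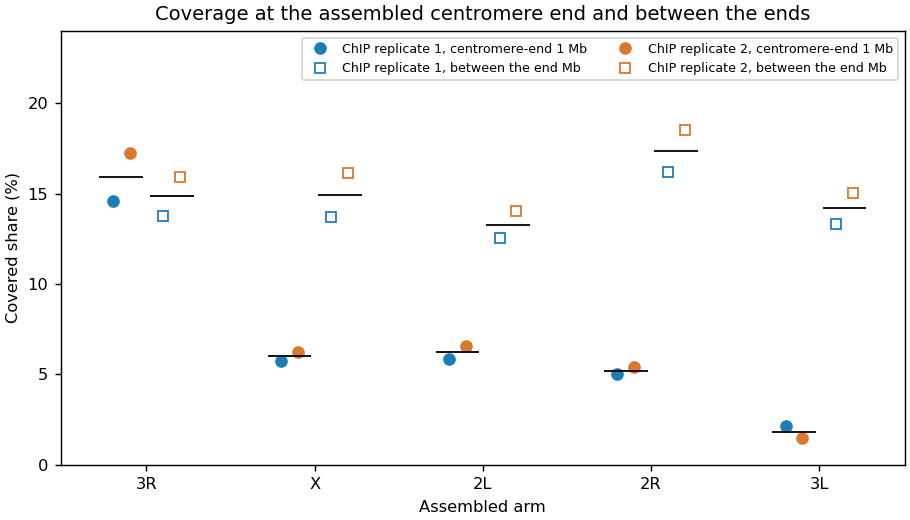
Covered share (percent) of the assembled 1 Mb at the centromere end (filled circles) and of the arm between its end Mb (open squares) for 5 arms, with 1 point per ChIP replicate and a line at their mean. On 3R the share at the centromere end is slightly higher in each replicate, 14.6% against 13.8% and 17.3% against 16.0%. On the other arms both replicates are lower at the centromere end.

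The replicates also differed in score at these ends, a comparison added after the values were seen. Regions that matched one to one between the ChIP lists were compared by their scores, replicate 2 minus replicate 1. In the first Mb of 3R the median difference was -0.23 (42 pairs, 29 lower in replicate 2), against -0.18 on the rest of 3R (958 pairs), and at the centromere end of X it was -0.22 (19 pairs), against -0.18 on the rest of X. At the centromere ends of 2L, 2R and 3L it was -0.76 (18 pairs), -1.27 (16 pairs) and -1.21 (6 pairs), against -0.21, -0.20 and -0.24 on the rest of those arms. By this measure 3R and X each had an end close to the rest of the arm. Replicate 1 scores of the pairs differed as well. Their medians at the ends of 2L, 2R and 3L were 2.63, 2.90 and 2.43, against 2.17, 2.21 and 2.18 on the rest. On 3R and X they were 2.32 and 2.35 at the end, against 2.25 and 2.31 on the rest. What the score level adds to these differences, and the difference between arms, was not tested.

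At the telomere end, domains took up 13.8% of the last Mb, 11.99% in replicate 1 and 14.4% in replicate 2 (13.2% ± 1.68, SD, n = 2), which was below the shares between the ends in each list. The domains in it were grouped: the last 500 kb was covered to 17.1% and the last 250 kb to 6.03%, with 4 domains.

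The 2 ChIP lists marked largely the same bases of 3R. They shared 3.66 Mb, which was 95.4% of the covered length of replicate 1 and 82.2% of that of replicate 2, with a Jaccard index (shared over combined length) of 79.1%. One-to-one matches numbered 1000. Among them replicate 2 was the wider in 872, by a median of 307 bp over all pairs, and the extra length was divided over both sides: the edge towards the centromere lay a median of 159 bp further out in replicate 2, and the edge towards the telomere 138 bp. Replicate 2 reached further out at both edges in 509 pairs and replicate 1 in 38. Scores were lower in replicate 2 mainly for the stronger domains. Where replicate 1 scored 2 or more, the median difference, replicate 2 minus replicate 1, was -0.43 (562 pairs), while where it scored under 1 the difference was 0.18 (217 pairs). Between 1 and 2 it was 0.05 (221 pairs). The pairs were sorted by a score that enters the difference, and what this adds was not tested. Scores had a Spearman correlation of 0.88 and widths of 0.89 across the 1000 pairs.

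Of the 1232 replicate-set domains, 1083 (87.9%, 95% Wilson interval 86.0% to 89.6%) were covered to at least 50% by both ChIP lists, against 87.5% of all 5314 regions. Replicate 1 alone covered 39 (3.17%, against 4.55% of all regions) and replicate 2 alone covered 87 (7.06%, against 6.12%). A further 23 (1.87%, against 1.83%) touched no region of either ChIP list. Their median width was 1205 bp, under that of the narrowest region of either ChIP list on the arm. The share for replicate 1 alone was lower on 3R, with a 95% Wilson interval of 2.32% to 4.30%. The other shares on 3R were near those of all sequences, which include 3R. In the first Mb, 46 of 50 domains were covered by both lists (92.0%, 81.2% to 96.8%). These intervals cover counting error only and treat regions as independent, which they are not. The replicate-set list combines the same 2 ChIP samples, so overlap with their lists is partly built in. Support here means agreement of the lists and is no independent evidence for a domain.

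Support fell with the score in a narrow range, in which width fell too, so score and width cannot be told apart here. Both lists covered 600 of 601 domains scoring 2 or more and 264 of 265 scoring between 1 and 2. Between 0.75 and 1 they covered 76 of 82 (92.7%), between 0.5 and 0.75 83 of 95 (87.4%), between 0.25 and 0.5 56 of 137 (40.9%), and under 0.25 4 of 52 (7.69%). Median widths of these classes, in the same order, were 2721, 2311, 1919 and 1653 bp. The widest domain touched by neither list measured 1617 bp (from 13072256 to 13073872, score 0.26), and the next were those from 18523528 to 18525132 and from 1936968 to 1938462, with scores of 0.06 and 0.05. The lowest score of the arm, 0.03, belonged to a domain from 15070740 to 15072512 that both lists nevertheless held, with scores of 0.13 in replicate 1 and 0.21 in replicate 2. A domain from 7512782 to 7514378 (score 0.05), also among the 3 lowest, was held by replicate 2 alone, with a score of 0.36.

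The pair of domains scoring 1 or more without support from both lists, singled out after their values were seen, were unlike each other. One lay from 8835296 to 8844538 (9.24 kb, score 2.50). Replicate 2 held all of it as 1 region of 9.59 kb with a score of 2.27, whereas replicate 1 held its first part only, 4.48 kb with a score of 3.55, which was 48.5% of its length. The other lay from 20752878 to 20753890 (1013 bp, score 1.86) and was in neither ChIP list, although the other 22 untouched domains scored at most 0.85. It was narrower than any ChIP region on the arm, as these began at 1303 bp in replicate 1 and 1302 bp in replicate 2.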

How the data were processed

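Chromatin immunoprecipitation and sequencing of H3K79me2 had been deposited as 3 lists of enriched regions, 1 for each ChIP sample and 1 for the replicate set. Bowtie 0.12.7 is the aligner named, per the submitters' processing notes. No source used here gives the program that called regions, its cutoff, the way replicates were combined or the unit of the score. The score of each region is the value the authors deposited. Positions are those of FlyBase release 5, per the file headers, and the gene table at hand was of release 6, so no gene was assigned.

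All 1232 lines on 3R were kept, without a filter. Widths, distances, runs (under 5 kb apart), covered shares of bins and of arm ends, and overlaps were computed with Python 3.11.15, numpy 2.4.6 and scipy 1.17.1, and covered lengths were tested on 20 simulated arms. A replicate-set region counted as covered by a ChIP list at 50% of its length or more. Replicate values are given as mean ± SD, shares of regions with 95% Wilson intervals. The members, the regions named by rule (widest, highest, lowest, first, last, isolated, split or unsupported regions, longest distances and runs, extreme bins) and the measures were chosen with earlier results of these data known. Alternatives were another list, score, width, support, merging, overlap, window or bin choice. Depth per sample is unknown, which leaves the precision of single regions unknown.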

Additional observations from a re-analysis of the deposited data

How the results depend on the processing

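Of 75 alternatives computed for 3R, 43 were counted as unmoved and 32 as moved. The limit was 1 SD between the ChIP lists for most values, 1.5 times for the number of regions, and the 95% Wilson interval for support and the Jaccard index. As the limits differ and the lists that set the SD are also among the alternatives, the tally does not measure stability. Over bases that interval is very narrow, so small moves of the Jaccard index count. Using 1 ChIP list in place of the replicate-set list gave covered shares of 13.7% to 15.9%, median scores of 1.88 to 2.25, median distances of 6902 to 7575 bp, shares in stretches over 100 kb of 25.5% to 26.0%, first-Mb shares of 14.6% to 17.3%, last-Mb shares of 11.99% to 14.4% and a densest bin of 21.9% to 25.8%. The higher-scoring 50% of regions (616) covered 9.80%, with a median width of 3836 bp, score of 2.60 and distance of 11661 bp, 51.7% of the arm in long stretches, 10.5% of the first Mb, 9.42% of the last, a densest bin of 16.4%, support from both lists of 99.8% and a Jaccard index of 72.0%. Regions of at least 2000 bp gave 7583 bp, 27.9%, 97.0% and 78.6% for distance, long stretches, support and Jaccard index. Regions covered by both lists gave 7962 bp and 27.6% for distance and long stretches. Joining regions under 500 bp apart gave 8125 bp and a Jaccard index of 79.2%, and the mean of the ChIP lists put 25.8% of the arm in long stretches. Coverage of at least 80% lowered support to 76.9%. Windows of 0.5 and 2 Mb gave 22.6% and 19.3% at the centromere end, and 0.5 Mb gave 17.1% at the telomere end. The cause of these moves was not tested. The score, width and support limits also leave fewer regions, and what this adds was not tested either. No paired analysis was possible because ChIP and input, the groups that share replicate numbers, cannot be compared without input region lists, which were not used here, and no result comes from a test. Arms and arm ends are compared within each replicate by their values.

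Read depth is unknown, and with 2 ChIP lists an exact paired permutation test cannot go below 0.5, so none was run. The score has no stated scale, and weak regions (under 0.5) mostly lack support from both lists. Positions on 3R cannot be tied to genes without a release 5 annotation.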

Other observations

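In the replicate-set list, all 2464 region edges on 3R fell on even positions (100%). In the ChIP lists 48.8% of edges did so in replicate 1 and 50.3% in replicate 2.

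Regions of a ChIP list without a partner on 3R in the other ChIP list were weak in each replicate. The 43 such regions of replicate 1 had a median score of 0.48, against 2.32 for its regions with a partner. The 103 such regions of replicate 2 had a median score of 0.51, against 1.99.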
